A study of Mus musculus with 20 samples.

Results

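The genes described here are 10 genes that mark the pericentral zone of the liver lobule: Glul, Rhbg, Slc1a2, Oat, Cyp2e1, Cyp1a2, Lgr5, Axin2, Tbx3 and Slc13a3. They were found by gene symbol, and all 10 had a row among the 46095 symbols of the count table. All 10 also passed the low-count filter, which kept 14440 genes for testing. RNA from the livers of 20 mice was sequenced to ask how loss of Pck1 in the liver alters the response to a diet modelling non-alcoholic steatohepatitis (NASH). Pck1 encodes cytosolic phosphoenolpyruvate carboxykinase, an enzyme of glucose synthesis. The 4 groups were wild-type mice on chow (WT chow), wild-type mice on the NASH diet (WT NASH), mice with a liver-specific Pck1 knockout on chow (KO chow) and such knockout mice on the NASH diet (KO NASH), with 5 mice in each. Diets lasted 24 weeks, and the age of the mice was 31 to 33 weeks. The sources used here do not say what drove the deletion.

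Hepatocytes along the path from the portal vein to the central vein divide the work of the liver. Wnt ligands and R-spondin from endothelial cells of the central vein act through frizzled receptors, Lrp co-receptors and Lgr receptors to stabilise beta-catenin, which with TCF factors switches on the pericentral programme. Cells next to the central vein take up glutamate and ammonia and make glutamine, and the wider pericentral zone is rich in cytochrome P450 enzymes, while urea synthesis and gluconeogenesis dominate in the periportal zone. In whole-liver RNA, fewer pericentral hepatocytes and less of a transcript per cell cannot be told apart.

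The groups differed in more than genotype and diet. Libraries held 9958935 to 20601955 counts. By their Y-linked counts WT chow held 5 males and WT NASH a male only in replicate 4. KO chow held females in replicates 3 and 5, and KO NASH a female only in replicate 2. Sex and diet were thus nearly confounded in the wild type, and sex and genotype were largely confounded on the NASH diet. The slope of expression on gene length was -0.343 to -0.247 in 6 libraries (WT chow replicates 3, 4 and 5, WT NASH replicate 4, KO chow replicates 4 and 5) and 0.0099 to 0.194 in the other 14. Pck1 was at 1701 to 4641 CPM (counts after scaling libraries to 1 total) in the wild type and at 300.4 to 861 CPM in the knockout. The 6 hepatocyte markers tested summed to 48476 to 121041 CPM in every library, and kidney tubule markers, relevant because Slc13a3 is abundant in kidney, summed to at most 0.237 CPM. KO NASH replicates 1 and 5 were the most alike pair of one group, with a chi-square per degree of freedom of 7.81, and were kept as separate samples.

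The promoters of the 4 members that passed the test in at least 1 comparison and had a RefSeq entry (Cyp1a2, Glul, Oat and Slc13a3) are shown with that of Cyp2e1, the most abundant member. Each is the 250 bases before the gene start, from RefSeq on GRCm38.p6, written along the gene, and 7 of the 10 members had an entry. Capitals mark the letters CTTTGAA, a core of the TCF/LEF motif, read on either strand (TTCAAAG is its reverse complement), and TATAAA, a core promoter box.
Cyp2e1 (chr7:140763569-140763818, plus strand): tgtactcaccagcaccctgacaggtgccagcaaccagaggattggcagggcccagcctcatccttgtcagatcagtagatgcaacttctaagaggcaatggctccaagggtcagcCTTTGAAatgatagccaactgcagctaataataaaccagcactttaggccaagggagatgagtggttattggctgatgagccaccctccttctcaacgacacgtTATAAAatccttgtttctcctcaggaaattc
Cyp1a2 (chr9:57683656-57683905, minus strand): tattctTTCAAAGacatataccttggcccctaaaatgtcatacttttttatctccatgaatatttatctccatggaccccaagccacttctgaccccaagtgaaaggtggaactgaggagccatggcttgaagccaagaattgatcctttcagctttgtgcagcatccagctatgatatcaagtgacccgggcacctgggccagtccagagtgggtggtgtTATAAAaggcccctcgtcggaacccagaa
Glul (chr1:153899679-153899928, plus strand): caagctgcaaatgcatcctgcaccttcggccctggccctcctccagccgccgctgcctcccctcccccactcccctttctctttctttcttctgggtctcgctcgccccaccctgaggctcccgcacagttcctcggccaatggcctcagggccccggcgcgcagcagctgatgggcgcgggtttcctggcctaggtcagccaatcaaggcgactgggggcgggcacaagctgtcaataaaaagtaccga
Oat (chr7:132576399-132576648, minus strand): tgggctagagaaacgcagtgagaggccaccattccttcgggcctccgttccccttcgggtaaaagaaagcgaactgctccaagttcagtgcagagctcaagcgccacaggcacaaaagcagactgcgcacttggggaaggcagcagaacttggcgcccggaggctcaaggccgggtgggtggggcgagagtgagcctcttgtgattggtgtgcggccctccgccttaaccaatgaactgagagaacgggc
Slc13a3 (chr2:165473198-165473447, minus strand): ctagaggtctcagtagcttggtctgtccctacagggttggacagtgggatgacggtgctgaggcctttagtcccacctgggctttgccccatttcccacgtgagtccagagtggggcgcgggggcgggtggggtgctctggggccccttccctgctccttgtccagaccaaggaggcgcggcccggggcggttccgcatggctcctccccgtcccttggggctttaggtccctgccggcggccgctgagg

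On GRCm38.p6 the members that passed a test lie at chr1:153899929-153909723 (Glul), chr9:57676937-57683655 (Cyp1a2), chr7:132557475-132576398 (Oat), chr2:165405295-165473197 (Slc13a3) and chr10:115450314-115587780 (Lgr5). The CTTTGAA letters stood at 135 to 129 bases before the start of Cyp2e1 and, on the opposite strand, at 244 to 238 bases before that of Cyp1a2. They were found in 4.46% of 32851 RefSeq promoters of that length. TATAAA stood at 31 to 26 bases before the start of Cyp2e1 and at 29 to 24 bases before that of Cyp1a2, and was found in 12.4% of all promoters. GCGTG, the core bound by the aryl hydrocarbon receptor, was in none of the 7 members with an entry and in 28.2% of all promoters, read on both strands. The motifs share no letters at these places. A match describes letters only, and their absence in these windows says nothing about the factor. For Slc1a2 and Axin2, which are not shown, the window lay inside the span of the gene (chr2:102706188-102706437 and chr11:108920099-108920348).

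Levels can be compared between genes per kilobase of exon. Over all 20 libraries Cyp2e1, which oxidises ethanol and many small molecules, had a mean of 3732 CPM per kilobase (range 2075 to 6906) and Oat, ornithine aminotransferase, 755 (320.2 to 1716). Glul, glutamine synthetase, followed with 277 (158 to 445), Cyp1a2, a cytochrome P450 induced through the aryl hydrocarbon receptor, with 73.6 (6.70 to 169.8), and the glutamate transporter Slc1a2 with 13.4 (4.37 to 26.6). Tbx3 (3.58), Slc13a3 (3.53) and Rhbg (3.48) had close means and overlapping ranges and are not ordered. Axin2 had 0.822 (0.145 to 1.98) and Lgr5 0.407 (0.0542 to 1.29). Every pair of neighbours in this order other than Cyp2e1 and Oat overlapped in range across libraries, which does not compare the genes within a library. The raw counts of Axin2 were 11 to 174 and those of Lgr5 12 to 224, so both carried the most counting error of the 10.

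**Figure D1:**
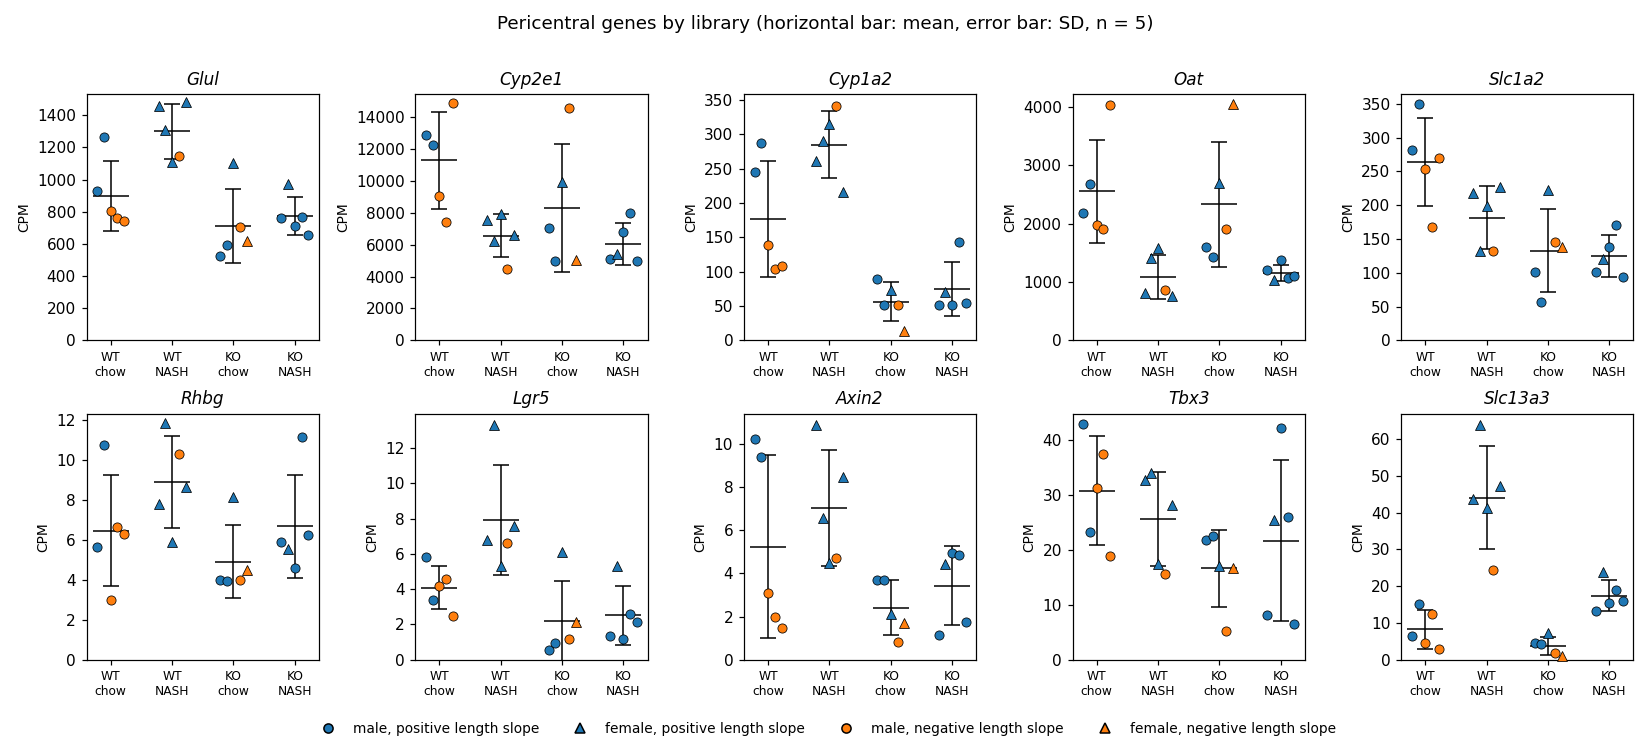
CPM of the 10 pericentral genes in each library (one panel per gene, group on the horizontal axis; circles male, triangles female, orange the 6 libraries with a negative length slope, blue the other 14; black bars mean ± SD, n = 5, drawn no lower than 0). Cyp1a2 in KO NASH lay below every WT NASH library, and Slc13a3 in WT NASH lay above every WT chow library.

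On chow, knockout livers had lower Cyp1a2 than wild-type livers, with a mean of 56.2 ± 28.7 CPM (SD, n = 5) against 177 ± 84.2. Cyp1a2 was the only one of the 10 members that passed the test of edgeR (quasi-likelihood, adjusted p under 0.05), against a background of 5.53% of all tested genes in either direction, 3.03% higher and 2.49% lower. It was also the only member with no overlap between the groups, where 4.91% of all genes did not overlap. All 10 estimates were below 0, with a median of -0.89 on the log2 scale beside 0.00 over all tested genes. The members were chosen with earlier results of these data known. Their signs, medians and shares, here and below, are thus a description and not an independent test. The estimates reached from -0.13 for Oat to -1.66 for Cyp1a2. Of the 10, 4 had an unadjusted p under 0.05 and all of these were lower, while none was higher by edgeR, DESeq2 or limma voom.

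On the NASH diet, knockout livers had lower Cyp1a2, Glul and Lgr5. The means were 74.2 ± 39.3 CPM against 285 ± 48.5 for Cyp1a2, 773 ± 118 against 1300 ± 172 for Glul and 2.51 ± 1.66 against 7.91 ± 3.11 for Lgr5 (SD, n = 5). These 3 of 10 passed the edgeR test, against a background of 9.65% of all genes in either direction, 4.9% higher and 4.74% lower. Slc13a3 lay below without overlap as well, so that 4 members did not overlap, where 14.1% of all genes did not. As sex and genotype were largely confounded on this diet, sex was also fitted as a term. There 4.33% of all genes passed, and of the 10 members only Cyp1a2 did (-2.15, adjusted p 0.013 by edgeR). Glul was at -0.52 (adjusted p 0.20) and Lgr5 at -0.99 (adjusted p 0.18) in that fit. Of 6 hepatocyte markers, 1 was called by edgeR, Serpina1a of a multigene family, at -0.82 (adjusted p 0.0439) here and at -1.07 (adjusted p 0.0189) on chow, and its part in these results was not tested. Of the other-tissue markers, Cfd, an adipose marker, was at 0 to 0.0646 CPM in WT NASH and 3.59 to 54.4 CPM in KO NASH (adjusted p 0.000687 by edgeR), while Adipoq and Plin1 stayed under 0.55 CPM and Lep was at 0 in both groups. Cela1, a pancreas marker, was at 11.7 to 107 CPM in WT NASH and 3.24 to 4.45 CPM in KO NASH (-3.15, adjusted p 0.00288), while Prss1 and Amy2a5 were at 0 and Cpa1 and Pnlip had at most 2 counts. Their part in the member values was not tested. Of the 10 estimates, 9 were below 0 (median -0.65, over all genes 0.00), and Oat was the exception at 0.09.

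In wild-type mice the NASH diet came with higher Slc13a3 and lower Oat. Slc13a3 stood at 44.1 ± 14.1 CPM against 8.29 ± 5.31 on chow, and Oat at 1083 ± 383 against 2557 ± 880 (SD, n = 5). These 2 of 10 passed the edgeR test and neither overlapped between the diets, against 5.93% of all genes that passed (2.69% higher, 3.24% lower) and 6.15% that did not overlap. The other 8 members did not pass, with estimates from -0.78 for Cyp2e1 to 0.96 for Lgr5, and the median of the 10 was 0.43 (over all genes 0.01). As sex and diet were nearly confounded there, the diet was also fitted with sex as a term, where 1.11% of all genes passed and only Oat of the 10 did (-1.67, adjusted p 0.029 by edgeR). With that term Slc13a3 was at 1.93 (adjusted p 0.11), Glul at 0.21, Cyp1a2 at 0.97, Cyp2e1 at -0.79, Slc1a2 at -0.97, Rhbg at 0.36, Lgr5 at -0.15, Axin2 at 0.31 and Tbx3 at -0.54.

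In knockout mice the NASH diet came with higher Slc13a3, at 17.4 ± 4.12 CPM against 3.71 ± 2.49 (SD, n = 5), the only member of 10 to pass the edgeR test. The background was 3.29% of all genes in either direction, 1.77% higher and 1.52% lower. Slc13a3 and Oat did not overlap between the diets, where 8.5% of all genes did not. The median of the 10 was 0.29 (over all genes -0.02).

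**Figure D2:**
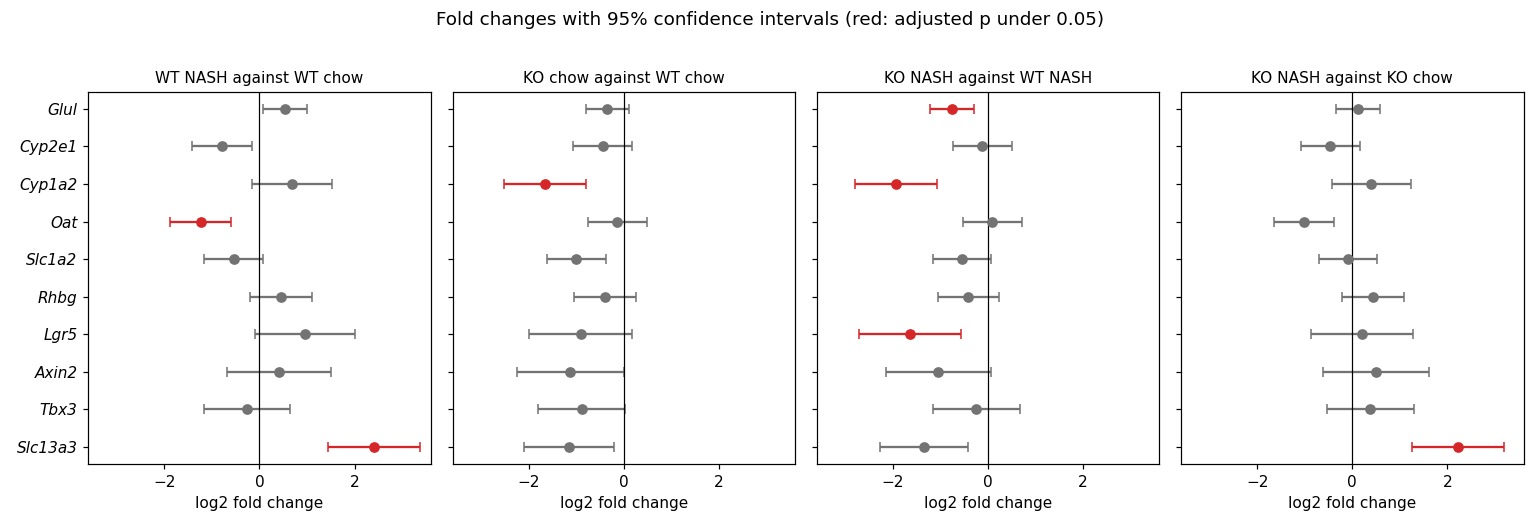
log2 fold change of each member in the 4 comparisons, with its 95% confidence interval, in red where the adjusted p by edgeR was under 0.05. Cyp1a2 is lowest among the knockout comparisons and Slc13a3 highest among the diet comparisons.

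The interaction, which asks if the genotype difference depended on diet, was called for 0 of the 10 members by edgeR, and 0.139% of all tested genes passed. No member had an unadjusted p under 0.05, and DESeq2 and limma voom called none. The estimates ran from -0.75 for Lgr5 to 0.64 for Tbx3 on the log2 scale, with adjusted p values of 0.82 to 0.996. The interval of the Lgr5 estimate reached from -2.25 to 0.76 and that of Cyp1a2 from -1.47 to 0.90, so differences of these sizes were not resolved. The comparisons share groups, and their values are therefore given side by side and not correlated.

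Glul, which makes glutamine from glutamate and ammonia in the cells next to the central vein, was at 927, 1267, 803, 759 and 739 CPM in WT chow replicates 1 to 5, and at 1457, 1310, 1108, 1144 and 1480 CPM in WT NASH. In KO chow it was at 525, 595, 1104, 706 and 618 CPM, and in KO NASH at 763, 969, 712, 766 and 656 CPM. Every KO NASH library lay below every WT NASH library, while the chow groups overlapped. Against WT NASH, Glul fell by 0.75 on the log2 scale in KO NASH (SE 0.22, 95% interval -1.21 to -0.29, adjusted p 0.0385 by edgeR), or 1.68-fold. The call was lost with sex as a term (-0.52, adjusted p 0.20), with sex and length slope together (-0.60, adjusted p 0.076), with KO NASH replicates 1 and 5 taken as 1 sample (-0.71, adjusted p 0.092), and in 7 of the 20 fits that each left out 1 library (WT NASH replicates 1, 2 and 5 and KO NASH replicates 1, 3, 4 and 5), where the adjusted p reached 0.105. Neither Glul on chow between the genotypes (-0.34, adjusted p 0.43) nor on the NASH diet in the wild type (0.53, adjusted p 0.16) or the knockout (0.12, adjusted p 0.75) passed the test.

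Oat, which converts ornithine to glutamate, was at 2178, 2688, 1972, 1913 and 4034 CPM in WT chow and at 810, 1405, 1584, 862 and 756 CPM in WT NASH. KO chow libraries held 1595, 1437, 2690, 1900 and 4051 CPM and KO NASH libraries 1205, 1027, 1375, 1063 and 1109 CPM. Within each genotype every NASH library lay below every chow library, and replicate 5 was the highest on chow in both genotypes. In the wild type Oat fell by 1.24 on the log2 scale (SE 0.31, interval -1.88 to -0.60, adjusted p 0.0211 by edgeR), or 2.36-fold. With sex as a term the estimate was -1.67 (adjusted p 0.029). The call was lost without WT chow replicate 5, WT NASH replicate 1 or WT NASH replicate 5 (adjusted p up to 0.072). In the knockout the difference was -1.01 (SE 0.30, adjusted p 0.071).

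Slc1a2, the glutamate transporter GLT-1, was at 281, 350, 254, 168 and 269 CPM in WT chow and at 218, 132, 198, 132 and 227 CPM in WT NASH. KO chow libraries had 101, 57.3, 222, 145 and 138 CPM, and KO NASH libraries 101, 120, 138, 171 and 93.1 CPM. WT chow had the highest mean and overlapped with KO chow through KO chow replicate 3. On chow the knockout value was 0.99 lower on the log2 scale (SE 0.30, interval -1.61 to -0.38) and did not pass at an adjusted p of 0.0539 by edgeR. It passed with sex as a term (-1.25, adjusted p 0.019) and with the length slope as a term (-1.01, adjusted p 0.027), and it passed without WT chow replicate 4, WT NASH replicate 4 or KO chow replicate 3. Rhbg, an ammonium transporter, was at 2.99 to 11.9 CPM and passed no test, with estimates from -0.41 to 0.45 in the 4 comparisons.

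Cyp1a2, which oxidises caffeine and aromatic amines, was at 246, 287, 139, 104 and 108 CPM in WT chow and at 262, 291, 315, 342 and 216 CPM in WT NASH. It was at 89.9, 52.1, 73.7, 51.8 and 13.5 CPM in KO chow and at 52.0, 70.6, 51.6, 143 and 53.9 CPM in KO NASH. On either diet each knockout library lay below each wild-type library. The knockout was lower by 1.66 on the log2 scale on chow (SE 0.41, interval -2.51 to -0.80, adjusted p 0.0234 by edgeR), 3.15-fold, and by 1.94 on the NASH diet (SE 0.42, interval -2.81 to -1.08, adjusted p 0.00684), 3.84-fold. The NASH call was kept in all 20 fits without 1 library. The chow call was lost without WT chow replicate 1, WT chow replicate 2 or KO chow replicate 2, at an adjusted p of up to 0.063. With sex as a term the values were -1.53 (adjusted p 0.041) and -2.15 (adjusted p 0.013), and among the males alone -1.45 (adjusted p 0.078) and -2.15 (adjusted p 0.029). Males alone left a single WT NASH library, which was assumed to vary like the other groups.

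Cyp2e1 stood at 12890, 12228, 9026, 7404 and 14904 CPM in WT chow and at 7548, 6220, 7927, 4477 and 6624 CPM in WT NASH. The KO chow values were 7026, 4997, 9938, 14554 and 5068 CPM, and the KO NASH values 5091, 5411, 6813, 7959 and 4956 CPM. The groups overlapped in every comparison, and no estimate passed the test, the nearest being -0.78 (SE 0.30, adjusted p 0.13 by edgeR) for the NASH diet in the wild type.

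Lgr5, the R-spondin receptor that raises Wnt signalling, was at 5.80, 3.41, 4.18, 4.56 and 2.49 CPM in WT chow and 6.78, 13.3, 5.33, 6.62 and 7.55 in WT NASH. It was at 0.556, 0.97, 6.09, 1.16 and 2.13 CPM in KO chow and 1.36, 5.30, 1.18, 2.59 and 2.13 in KO NASH. Every KO NASH library lay below every WT NASH library, where the closest were 5.30 and 5.33 CPM, and on chow replicate 3 of KO chow overlapped with the wild type. Among KO chow libraries the males held 0.556 to 1.16 CPM and the females 2.13 to 6.09. The fall of 1.65 on the log2 scale on the NASH diet (SE 0.51, interval -2.72 to -0.58) passed at an adjusted p of 0.0471 by edgeR and lost its call with sex as a term (-0.99, adjusted p 0.18). It also lost the call in 12 of the 20 fits without 1 library (WT chow replicates 1 to 4, WT NASH replicates 1, 2, 4 and 5, and KO NASH replicates 1, 3, 4 and 5), with an adjusted p of up to 0.123, and with KO NASH replicates 1 and 5 taken as 1 sample (-1.54, adjusted p 0.11). On chow the estimate was -0.90 (adjusted p 0.36) in the main fit, -1.80 with sex as a term (adjusted p 0.019) and -2.19 among males (adjusted p 0.0073). The male minus female term for Lgr5 was -1.42 (adjusted p 0.053), and for the other 9 members it did not pass (adjusted p at least 0.67). In that fit the sex term passed for 147 of all 14440 tested genes. Together with the length slope the sex term for Lgr5 passed (-1.44, adjusted p 0.028), and it passed for no other member (adjusted p at least 0.314). How many of all genes passed the sex term in the fit with both terms was not counted.

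Axin2, a feedback inhibitor of Wnt signalling, and Tbx3, a T-box transcription factor of pericentral hepatocytes, passed no test in the 4 comparisons. Axin2 levels were 10.2, 9.42, 3.08, 1.99 and 1.46 CPM in WT chow, with 10.9, 6.59, 4.48, 4.71 and 8.46 CPM in WT NASH. KO chow libraries had 3.71, 3.70, 2.13, 0.799 and 1.70 CPM, and those of KO NASH 1.15, 4.45, 4.97, 4.84 and 1.77 CPM. Within WT chow the 2 libraries with a positive length slope were the high ones. In the fit with sex and length slope as terms, Axin2 changed by 1.06 on the log2 scale over a slope step of 0.3 (adjusted p 0.00264 by edgeR). Slc13a3 changed by 0.75 (adjusted p 0.0136) and Cyp1a2 by 0.66 (adjusted p 0.0151). The slope term passed for these 3 of the 10 members and for 8357 of all 14440 tested genes. A passing slope term was thus not particular to these members. With the length slope as the only added term, the knockout values of Axin2 were -1.31 on chow (adjusted p 0.047) and -1.38 on the NASH diet (adjusted p 0.027). With both terms they were -1.37 (adjusted p 0.045) and -1.29 (adjusted p 0.080), so the call on the NASH diet was not kept. Tbx3 was at 5.15 to 43.0 CPM, with estimates from -0.88 to 0.38.

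Slc13a3, a sodium-coupled carrier of succinate and other dicarboxylates, was at 6.34, 15.2, 4.58, 12.5 and 2.84 CPM in WT chow and at 43.7, 63.8, 41.3, 24.4 and 47.3 CPM in WT NASH. It was at 4.45, 4.22, 7.23, 1.74 and 0.911 CPM in KO chow and at 13.2, 23.9, 15.4, 18.9 and 15.9 CPM in KO NASH. Each NASH library lay above each chow library of its genotype, and each KO NASH library lay below each WT NASH library. Slc13a3 rose by 2.41 on the log2 scale in the wild type (SE 0.46, interval 1.44 to 3.38, adjusted p 0.00437 by edgeR), 5.31-fold, and by 2.22 in the knockout (SE 0.46, interval 1.25 to 3.19, adjusted p 0.0172), 4.65-fold. Both calls were kept in all 20 fits without 1 library. With sex as a term they were 1.93 (adjusted p 0.11) and 2.31 (adjusted p 0.011), so the wild-type call was lost and the knockout call was not. The difference between genotypes on the NASH diet was -1.34 (SE 0.44, adjusted p 0.0604 by edgeR), and it passed in 10 of 35 alternatives. With the length slope as a term it passed at -1.62 (adjusted p 0.0051), and with both terms at -1.35 (adjusted p 0.036). It did not pass with sex as a term (-0.99, adjusted p 0.27) or with KO NASH replicates 1 and 5 as 1 sample (-1.27, adjusted p 0.13).

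**Figure D3:**
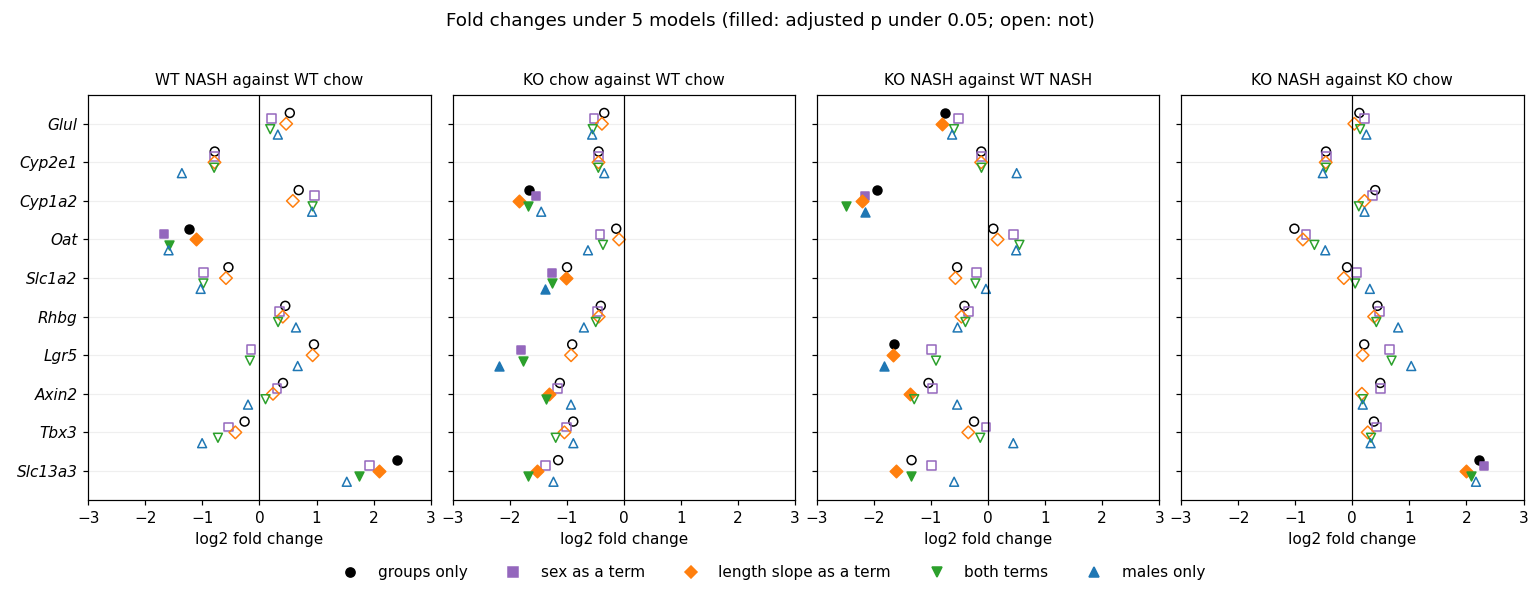
log2 fold change of the 10 members in the 4 comparisons, under the model of groups only and with sex, length slope or both as terms and among males alone (filled symbols passed the test, open symbols did not). Cyp1a2 stays below 0 in both knockout comparisons, and Slc13a3 stays above 0 in both diet comparisons.

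Pericentral genes outside the 10 members were tested as a list of 22. Like the 10 members, that list and the periportal list were chosen with earlier results of these data known. Their shares are therefore set beside those of all genes as a description and are not an independent test. In KO chow 9 of 22 were lower and 0 higher by edgeR (2.49% and 3.03% of all tested genes), with a median of -1.003 beside 0.00 over all genes. In KO NASH 8 were lower and 1 was higher (4.74% and 4.9% of all genes), with a median of -0.84. By DESeq2, which called 9.62% and 15.2% of all genes in either direction, 11 were lower on chow and 9 on the NASH diet. With sex as a term, where 5.84% and 4.33% of all genes passed, 9 and 8 were lower. Limma voom called 15 and 10 lower, but also 40.4% and 23.8% of all genes. The strongest called were Cyp2c29 (-3.58, SE 0.59, adjusted p 0.00168), Cyp2c50 (-2.67, adjusted p 0.00151) and Cyp2c54 (-2.66, adjusted p 0.00421), members of a multigene cytochrome family whose reads can be split among copies, and Lect2 (-1.87, adjusted p 0.0354; with sex as a term -1.90, adjusted p 0.059) on chow. On the NASH diet they were Lect2 (-3.004, adjusted p 0.00162), Rgn (-2.26, adjusted p 0.00486), Cyp2c37 (-2.19, adjusted p 0.0087) and Avpr1a (-2.07, adjusted p 0.00048), a vasopressin receptor. Each of these passed with sex as a term, where Cyp2c37 was at -1.69 (adjusted p 0.046 by edgeR). With sex and length slope as terms Cyp2c37 lost the call (-1.11, adjusted p 0.083), while Lect2 (-2.12), Rgn (-1.62) and Avpr1a (-2.10) kept it. For the diet in the wild type 3 were higher and 1 lower (2.69% and 3.24% of all genes, median -0.46): Gstm1 (1.36, adjusted p 0.0465), Avpr1a (1.25, adjusted p 0.0177), Ahr and Cyp8b1 (-1.59, adjusted p 0.00311). None of the 4 passed with sex as a term, where the adjusted p was 0.25 for Gstm1, 0.14 for Avpr1a, 0.19 for Ahr and 0.095 for Cyp8b1. Of 14 periportal genes, 1 was higher and 0 lower in KO chow, and 1 was higher and 1 lower in KO NASH, with medians of 0.22 and 0.04, beside 3.03% higher and 2.49% lower of all genes on chow and 4.9% and 4.74% on the NASH diet.

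**Figure D4:**
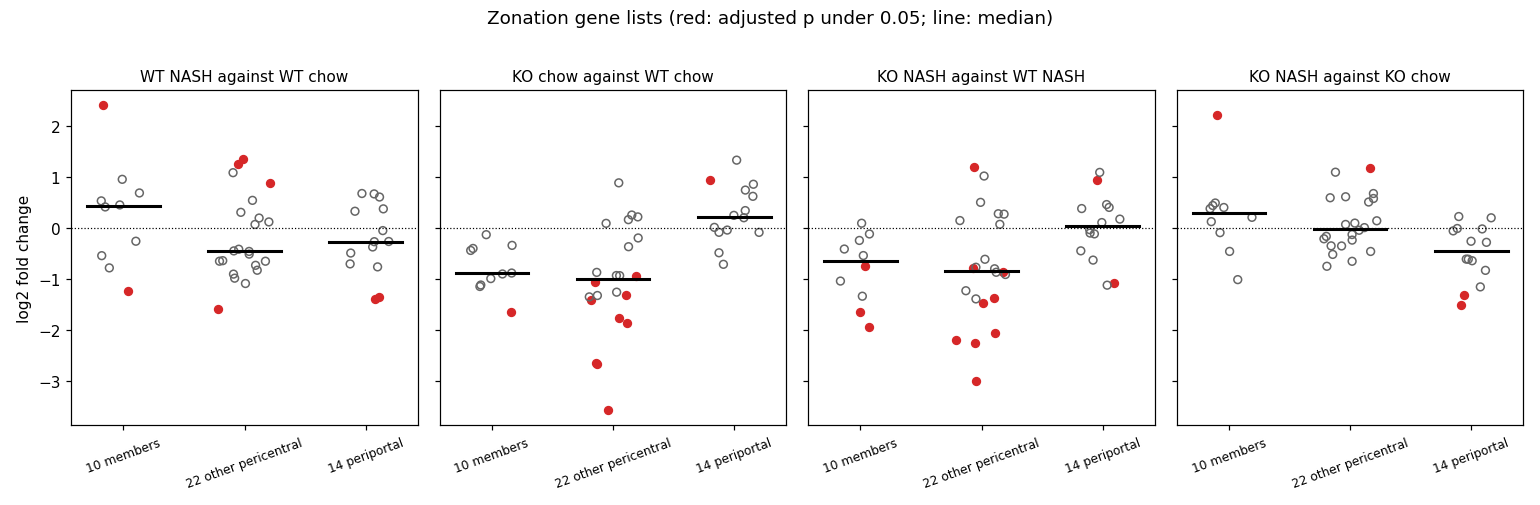
log2 fold changes of the 10 members, the 22 other pericentral genes and the 14 periportal genes in the 4 comparisons, with the median of each list as a line and each gene as a point, in red where the adjusted p by edgeR was under 0.05. In the comparisons of knockout with wild type the pericentral lists are centred below 0 and the periportal list near it. The lists were chosen with earlier results of these data known.

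The pathway that sets the zone was read from lists of its ligands, receptors and targets. No Wnt ligand or R-spondin among the 5 of 7 tested was called in any of the 4 comparisons by edgeR or DESeq2, and 1 had an unadjusted p under 0.05, in KO NASH against KO chow. Limma voom called 1 higher in WT NASH and 1 lower in KO chow, where it called 40.6% and 40.4% of all genes. Endothelial cells are a source of these ligands, and 2 of 6 endothelial markers, Kdr (0.66, adjusted p 0.0323 by edgeR) and Lyve1 (1.62, adjusted p 0.00866), were higher in KO NASH than in WT NASH, where 4.9% of all genes were higher. The 6 summed to 162 to 248 CPM in WT NASH and to 202 to 324 CPM in KO NASH, and their part in the member values was not tested. Wnt2 differed by -0.60 on chow and -0.56 on the NASH diet between genotypes (adjusted p 0.27 and 0.23), Wnt9b by 0.37 and 0.75 (adjusted p 0.69 and 0.30) and Rspo3 by 0.23 and -0.18 (adjusted p 0.60 and 0.65). Wnt9b had 3 to 32 counts per library and is not resolved at this depth. Of 22 tested receptors and pathway components only Tcf7l2, a TCF factor, passed, and it was lower in KO NASH, where 4.74% of all genes were lower (-0.86, adjusted p 0.0423 by edgeR; with sex as a term -0.79, adjusted p 0.14). DESeq2 called 3 of the 22 lower and 1 higher there, and 15.2% of all genes. Of 8 tested feedback and target genes, Ccnd1 rose in WT NASH (2.38, adjusted p 0.0166), without a call once sex was a term (0.69, adjusted p 0.53). Myc rose in KO chow (2.08, adjusted p 0.037), and Dkk3 rose in KO NASH against WT NASH (1.30, adjusted p 0.00849) and against KO chow (1.79, adjusted p 0.00443). Sfrp1 passed in KO NASH against KO chow (2.30, adjusted p 0.0455) and lost the call with sex as a term (1.87, adjusted p 0.094) and with both terms (2.01, adjusted p 0.066), and it was called in 10 of 33 alternatives. Of all genes, 2.69% were higher in the comparison that called Ccnd1, 3.03% in that of Myc, 4.9% in that of Dkk3 against WT NASH and 1.77% in KO NASH against KO chow.

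Among genes of glutamine, ammonia and ornithine handling other than the members, 2 passed between the genotypes. Of 15 tested, Glud1, glutamate dehydrogenase, and Slc38a2, a neutral amino acid transporter, were lower in KO chow (-0.75, adjusted p 0.0441, and -0.89, adjusted p 0.0174 by edgeR) and in KO NASH (-1.21, adjusted p 0.0018, and -0.996, adjusted p 0.00606). On chow Glud1 passed in only 15 of 34 alternatives and Slc38a2 in 30 of 34. On the NASH diet each passed in 33 of 35. With sex as a term both passed on either diet. Of all genes 2.49% were lower on chow and 4.74% on the NASH diet. Glud1 rose in WT NASH (1.18, adjusted p 0.00319; with sex as a term 1.00, adjusted p 0.077), as did the neutral amino acid transporter Slc1a4 (1.36, adjusted p 0.021; with sex as a term 1.45, adjusted p 0.14), while Slc38a4 fell (-0.74, adjusted p 0.0431; with sex as a term -0.68, adjusted p 0.27).

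The aryl hydrocarbon receptor induces Cyp1a2, and 1 of its 6 tested pathway genes passed between genotypes: Tiparp was lower in KO NASH (-0.85, adjusted p 0.0161 by edgeR), where 4.74% of all genes were lower. Ahr itself belonged to the other pericentral list. It was lower in the knockout on chow (-1.06, adjusted p 0.00847) and on the NASH diet (-0.78, adjusted p 0.0301), where it was noted after its values were seen, and higher with the NASH diet in the wild type (0.89, adjusted p 0.0217; with sex as a term 0.80, adjusted p 0.19) and in the knockout (1.17, adjusted p 0.0101). Its mean on chow was 44.1 CPM in the wild type and 21.1 CPM in the knockout, and on the NASH diet 81.8 and 47.5 CPM.

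For Glul the genes with the most similar pattern over the 20 libraries, by Pearson correlation of log2 CPM among 9037 genes, were Smagp (0.90), Car8 (0.89) and F11 (0.88). For Cyp1a2 they included Slc22a7 (0.93), an organic anion transporter, and Cadps2 (0.91). Slc13a3 was most like Dpp9 (0.95), Crebbp (0.93) and Rfx7 (0.93), Axin2 most like Onecut2 (0.89), Tmem170b (0.89) and Adnp2 (0.87), and Cyp2e1 most like Surf1 (0.89), Sod1 (0.83) and Tmem220 (0.83). These are descriptions over libraries that share depth, sex and length slope.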

How the data were processed

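Raw read counts per gene symbol, as the authors deposited them, were the only measurement used. Per the submitters' processing notes, reads were aligned with HISAT2 2.0.4 to GRCm38; the sources used here do not name the counting program, annotation or strand setting. Columns named HFD were taken as the NASH groups, since the others name chow. Library totals were 9958935 to 20601955 counts, so low genes carry counting error.

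The counts were fitted in R 4.3.3 with edgeR 4.0.16 (quasi-likelihood F test, TMM scaling, filterByExpr with a minimum count of 10), with 1 coefficient for each of the 4 groups over all 20 libraries. A gene was called where its p, adjusted over 14440 genes by Benjamini-Hochberg, was under 0.05. CPM used TMM-scaled library sizes, and exon lengths came from GENCODE M21. The procedure was tested on simulated data.

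The length slope regresses a library's log2 CPM, less each gene's average, on log2 exon length over 9518 genes. Sex was read from the counts (at least 100 counts over 4 Y-linked genes). Alternatives were DESeq2 1.42.0, limma 3.58.1 voom, other scalings and filters, sex and length slope as terms, single sexes, KO NASH replicates 1 and 5 summed, and each library left out. The 10 members and the lists were chosen with earlier results of these data known. Named are all 10 members, up to 4 called genes of each list with the largest change, Wnt2, Wnt9b and Rspo3, and the 3 most similar genes of 5 members, of which 1 is not reported here.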

Additional observations from a re-analysis of the deposited data

Results flagged for a closer look

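Among 40 tests (10 genes in 4 groups of 5 libraries) for a library far from the rest of its group, 5 had one. Normally distributed values would give about 1 in 20 groups. That rate may not hold here, since CPM were used without a log and the 10 genes share libraries. All 5 were the highest value of their group. Cyp1a2 in KO NASH replicate 4 was at 143 CPM and the next library at 70.6 CPM. Rhbg in KO chow replicate 3 was at 8.12 CPM with the next at 4.50 CPM, and in KO NASH replicate 4 at 11.1 CPM with the next at 6.21 CPM. Lgr5 in WT NASH replicate 2 was at 13.3 CPM with the next at 7.55 CPM, and in KO chow replicate 3 at 6.09 CPM with the next at 2.13 CPM. KO chow replicate 3 was a female library, as was WT NASH replicate 2, while KO NASH replicate 4 was male. Without KO chow replicate 3 the difference of Lgr5 on chow between the genotypes passed the test by edgeR, at -1.78 (adjusted p 0.0271), against -0.90 (adjusted p 0.36) with it.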

How the results depend on the processing

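Counts of called members depended on the fit, as did the share of all genes called, given here in either direction. For WT NASH against WT chow, the 1 lower member became 0 with only the groups compared (2.74% of all genes), males only (0.596%) or the 14 libraries of positive length slope (4.88%, added after seeing the data), and the 1 higher member became 3 by limma voom (40.6%) and 0 with sex as a term (1.11%) or males only. For KO chow against WT chow, the 1 lower member became 2 by DESeq2 (9.62%) and in males only (6.23%), 3 by voom (40.4%) and with sex as a term (5.84%), 4 with the slope (11.5%), 5 with both (13.8%) and 0 with only the groups compared (2.2%). For KO NASH against WT NASH, the 3 lower members became 1 without a filter (4.54%), with sex as a term (4.33%) or with KO NASH replicates 1 and 5 as 1 sample (5.23%), 5 by voom (23.8%) or with the slope (16.5%), and 0 in females only (0.138%). For KO NASH against KO chow, DESeq2 (9.02%) called 1 lower, and the 1 higher member became 0 in males only (0.37%) and in females only (0%). Leaving out each library gave 0 to 3 lower members in KO chow, 1 to 4 in KO NASH against WT NASH, 0 to 1 lower with 1 higher in each diet comparison, and 0 for the interaction. Same-numbered replicates correlated at -0.490 to 0.635 in their deviations, and at over 0.1 in 3, 4, 1 and 2 of 5 pairs in the 4 comparisons. What same-numbered libraries share beyond the number was not tested. The replicate block gave 1 higher and 1 lower member, 1 lower, 3 lower and 1 higher in the 4 comparisons, the same counts as without it. With the block 7.11%, 6.11%, 10.1% and 3.7% of all genes were called. In KO NASH against WT NASH, however, Lgr5 lost its call (-1.68, adjusted p 0.051 by edgeR) and Slc13a3 gained one (-1.35, adjusted p 0.047). Signs of values that passed no test turned as follows. In WT NASH against WT chow, Lgr5 was at -0.15 with sex and -0.17 with both terms, and Axin2 at -0.20 in males and -0.36 at positive slope. In KO chow, Oat was at 0.11 and 0.0033 without WT chow replicate 5 or KO chow replicate 2 (leave-one-out range -0.40 to 0.11). In KO NASH against WT NASH, Cyp2e1 (0.50) and Tbx3 (0.44) turned in males, and Oat in females (-0.13) and without WT NASH replicate 5 (-0.012, range to 0.27). In KO NASH against KO chow, Slc1a2 was at 0.29 by voom, 0.079 with sex, 0.051 with both, 0.31 in males and 0.18 without KO chow replicate 3 (range from -0.28), Lgr5 at -0.042 without KO chow replicate 1 and -0.26 without KO NASH replicate 2 (range to 1.08), Axin2 at -0.029 by voom, Tbx3 at -0.088 by voom and -0.0081 without KO NASH replicate 3 (range to 0.61), and Rhbg (-0.19) and the called Sfrp1 (-0.56) turned in females only. The cause was not tested.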
